A study of Mus musculus with 5 samples.

Results

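The genes described are 9 genes of intestinal sugar transport, fructose metabolism and gluconeogenesis, namely Slc2a2, Slc2a5, Slc5a1, Khk, Pck1, Fbp1, G6pc, Slc37a4 and Pklr. They were measured by every array probe set that the platform annotation gives to 1 of these symbols and to no other gene, which made 13 of 22626 probe sets tested, and 9 of the 12393 genes named. The tissue was fetal mouse colon of stage E18.5, hybridised as 3 HNF4 null arrays (null_59, null_60, null_426) and 2 control arrays (CONTROL_406, CONTROL_421). The null colons had the genotype HNF4LoxP/LoxP FoxA3Cre, with 2 floxed HNF4 alleles, and the control colons the genotype HNF4LoxP/+ FoxA3Cre, with 1 floxed and 1 unmodified allele. Both groups therefore carried the Cre transgene, and the controls were heterozygous rather than unmodified. The transgene is named for Foxa3, a gene of the gut endoderm, from which the epithelium but not the muscle, nerves and vessels of the gut wall arise, and the whole wall was in the sample. The question put to these genes is whether their colonic transcript levels differ between animals with 2 floxed HNF4 alleles and animals with 1.

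None of the 13 probe sets differed between HNF4 null and control colons at the threshold of an adjusted p under 0.05 (limma), where 0.106% of all probe sets passed as lower and 0.0177% as higher in null. At an unadjusted p under 0.05 the number was also 0 of 13, against 4.33% of all probe sets lower and 2.82% higher. The 10 probe sets that were not dim, that is for which at least 25% of all probe sets had a lower mean, had ratios of null over control between 0.929 and 1.14, and their 95% intervals reached from 0.713 to 1.67. The 3 dim ones measured Slc2a2, G6pc and, as the second of 2 probe sets, Slc5a1.

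Glucose and galactose enter an absorptive cell of the gut through SGLT1, the sodium-coupled transporter encoded by Slc5a1, and fructose through GLUT5, encoded by Slc2a5, while GLUT2, encoded by Slc2a2, passes all of these sugars across the basolateral membrane. Inside the cell ketohexokinase, encoded by Khk, phosphorylates fructose. Gluconeogenesis runs from oxaloacetate to free glucose through phosphoenolpyruvate carboxykinase (Pck1), fructose bisphosphatase (Fbp1) and glucose-6-phosphatase (G6pc), the last of which acts in the endoplasmic reticulum on substrate brought in by the transporter encoded by Slc37a4. Pklr encodes the pyruvate kinase of liver and red cells, which runs the opposite way to Pck1. The full gluconeogenic pathway is known from liver, kidney and small intestine, tissues in which HNF4 alpha is a transcription factor of the parenchymal cells, and in adult liver G6pc and Pck1 are known targets of that factor.

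Because HNF4 factors and their partner HNF1 are known for binding close to the start of such genes, the promoters of 3 genes are shown, those in which their motifs were found. The sequences are the 250 bases before the RefSeq start (GRCm38.p6, plus strand in all 3 cases), 5' to 3', in lower case, with matches to 4 motifs in capitals. They are chr11:101367466-101367715 for G6pc, chr2:173152823-173153072 for Pck1 and chr5:30921309-30921558 for Khk.
G6pc: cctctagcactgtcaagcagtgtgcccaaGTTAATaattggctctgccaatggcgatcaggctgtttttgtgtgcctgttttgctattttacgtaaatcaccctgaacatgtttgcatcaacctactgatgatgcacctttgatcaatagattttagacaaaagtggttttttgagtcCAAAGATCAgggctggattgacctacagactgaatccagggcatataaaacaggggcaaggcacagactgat
Pck1: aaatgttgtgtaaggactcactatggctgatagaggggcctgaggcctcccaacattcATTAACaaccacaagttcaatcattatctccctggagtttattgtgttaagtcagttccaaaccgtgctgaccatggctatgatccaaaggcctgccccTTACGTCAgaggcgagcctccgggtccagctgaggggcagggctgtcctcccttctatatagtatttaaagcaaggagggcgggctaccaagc
Khk: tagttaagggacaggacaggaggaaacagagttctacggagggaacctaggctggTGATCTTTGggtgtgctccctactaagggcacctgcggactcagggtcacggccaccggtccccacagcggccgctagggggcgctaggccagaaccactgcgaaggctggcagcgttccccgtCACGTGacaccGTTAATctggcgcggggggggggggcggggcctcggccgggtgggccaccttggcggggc
The 4 motifs, searched on both strands, were CAAAGNNCA for HNF4, GTTAAT as the core of the HNF1 site, TNACGTCA for the cyclic AMP response element and CACGTG for the E-box. In G6pc, the capitals mark GTTAAT from 221 to 216 bases and CAAAGATCA from 72 to 64 bases before the start. In Pck1 they mark the HNF1 core, read on the other strand, from 192 to 187 bases and the cyclic AMP response element TTACGTCA, through which glucagon signalling is known to act on this gene in liver, from 93 to 86 bases before the start. In Khk they mark the HNF4 letters, read on the other strand, from 195 to 187 bases, an E-box from 71 to 66 bases and GTTAAT from 60 to 55 bases before the start. The annotated span of Khk begins at 30921436, upstream of the start at 30921559 used here. Its E-box and GTTAAT therefore lie within that span.

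RefSeq gave 12 such windows for the 9 genes, with 2 starts for Pklr and 3 for Slc37a4. The HNF4 letters stood in 2 of the 12 windows (G6pc and Khk) and in 5.49% of 32851 promoter windows of the mouse table. The HNF1 core stood in 3 of 12 (G6pc, Khk and Pck1) and in 6.43% of all windows. The cyclic AMP response element stood in 1 of 12 (Pck1) against 2.52%, and the E-box in 2 of 12 (Khk and Slc5a1, in the latter from 143 to 138 bases before the start) against 6.02%. A match describes letters and not a bound site, and windows of Slc2a2, Slc2a5, Fbp1, Slc37a4 and Pklr without a match lack only these letters.

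**Figure D1:**
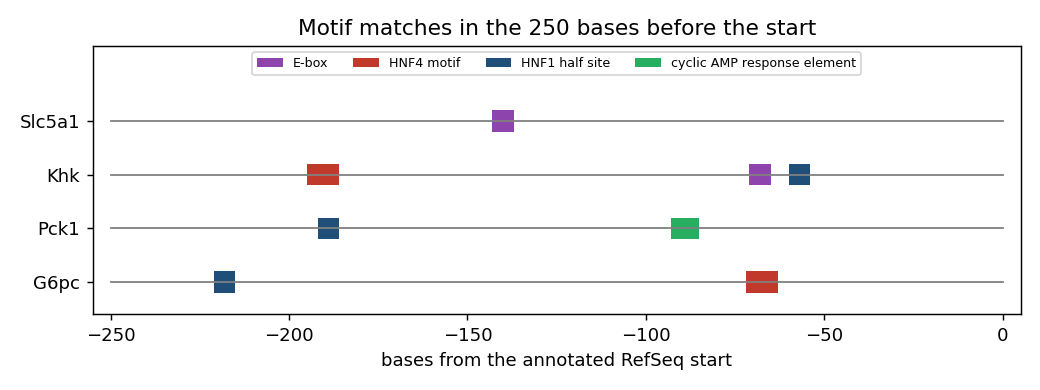
Matches to 4 motifs in the 250 bases before the annotated start of the 4 genes that had any, on an axis of bases from the start. G6pc and Khk have an HNF4 match, from 72 to 64 and from 195 to 187 bases before the start, and Pck1 has a cyclic AMP response element from 93 to 86 bases before it.

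The 2 genes whose promoters hold the HNF4 letters, G6pc and Khk, did not pass the threshold. G6pc, which releases free glucose at the end of gluconeogenesis, read 51.8, 46.8 and 58.9 in the null arrays (in the order null_59, null_60, null_426, kept throughout) and 46.6 and 37.4 in the controls (CONTROL_406, then CONTROL_421). All of these deposited intensities were low, with 17.1% of all probe sets dimmer, and every null array lay above both controls, the closest pair by 46.8 against 46.6. The ratio of null over control was 1.11 (95% interval 0.863 to 1.42, limma adjusted p = 0.854). Khk read 226, 239 and 226 in null and 212 and 263 in control colons, so that the null arrays lay inside the range of the controls. Its ratio was 0.974 (0.746 to 1.27, adjusted p = 0.970).

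Pck1, which makes phosphoenolpyruvate from oxaloacetate at the start of the pathway, had 2 probe sets, and both overlapped between the groups. The brighter, 1423439_at, read 196, 156 and 216 in null and 159 and 213 in control colons, with a low and a high array in each group. Its ratio was 1.01 (95% interval 0.734 to 1.39, adjusted p = 0.994). The dimmer, 1455209_at, read 82.1, 82.9 and 99.0 against 88.6 and 66.9, a ratio of 1.06 (0.819 to 1.38, adjusted p = 0.917). The 2 probe sets did not order the arrays alike, since CONTROL_421 was the lowest of the 5 by the dimmer one and next to the highest by the brighter one.

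Fbp1, the enzyme that reverses the phosphofructokinase step, varied little among the null arrays. It read 114, 109 and 114 in null and 113 and 123 in control colons, a mean of 112 ± 2.62 (SD, n = 3) against 118 ± 7.04 (SD, n = 2). The ratio was 0.929 (95% interval 0.723 to 1.19, adjusted p = 0.897). Slc37a4, the partner of G6pc in the endoplasmic reticulum, read 296, 235 and 305 in null and 248 and 239 in control colons. null_59 and null_426 lay above both controls and null_60 lay below them. The ratio was 1.14 (0.855 to 1.51, adjusted p = 0.839).

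Among the transporters, Slc5a1 was the member whose null arrays were most spread. Its brighter probe set, 1419057_at, read 479, 334 and 623 in null_59, null_60 and null_426 and 430.2 and 427 in the 2 controls. The null arrays thus lay on both sides of a narrow control range, with means of 478 ± 144 (SD, n = 3) and 428 ± 2.53 (SD, n = 2). The ratio was 1.11 (95% interval 0.739 to 1.67, adjusted p = 0.909). Without null_426 the log2 difference went from 0.15 to -0.08 (adjusted p = 0.975), and without null_60 it was 0.41 (adjusted p = 0.557).

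The second Slc5a1 probe set, 1455431_at, ordered the null arrays the other way. It read 46.8, 59.98 and 28.7 in null_59, null_60 and null_426 and 55.6 and 52.8 in control colons, so that null_426 was the highest array by the brighter and the lowest by the dimmer probe set. Its ratio was 0.806 (0.555 to 1.17, adjusted p = 0.802), and 17.1% of all probe sets were dimmer. The log2 difference of -0.31 became -0.07 without null_426 (adjusted p = 0.972). The mean of both probe sets differed by -0.08 on the log2 scale (adjusted p = 0.919), so the sign of the Slc5a1 difference depended on the probe set.

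Slc2a5, the fructose transporter, read 334, 294 and 377 in null and 301 and 316 in control colons. The controls lay inside the range of the null arrays. The ratio was 1.09 (95% interval 0.821 to 1.45, adjusted p = 0.893).

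Slc2a2, the basolateral transporter, was the dimmest member, with only 2.38% of all probe sets dimmer. It read 18.6, 18.2 and 13.9 in null and 12.7 and 5.38 in control colons, so every null array lay above both controls, by 13.9 against 12.7 at the closest. On the log2(intensity + 16) scale the difference was 0.33 ± 0.18 (SE), a ratio of 1.26 (95% interval 0.955 to 1.66, adjusted p = 0.745). The added 16 is as large as the values themselves here and compresses the ratio. With a pseudocount of 1 the ratio was 1.64 (1.06 to 2.52, unadjusted p = 0.0310 and adjusted p = 0.746 by limma). The deposited table has no detection calls, so whether Slc2a2 was above background in any array is not known.

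Pklr, the last member, had 3 probe sets that overlapped between the groups. 1421259_at read 240.0, 198 and 243 in null and 209 and 200.4 in control colons, a ratio of 1.09 (95% interval 0.836 to 1.43, adjusted p = 0.883). 1421258_a_at read 218, 223 and 228 against 219 and 195, a ratio of 1.07 (0.834 to 1.36, adjusted p = 0.908). The dimmest, 1438711_at, read 87.4, 73.6 and 99.0 against 109 and 62.8, with the controls as the highest and the lowest of the 5 arrays, and its ratio was 0.981 (0.713 to 1.35, adjusted p = 0.983).

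**Figure D2:**
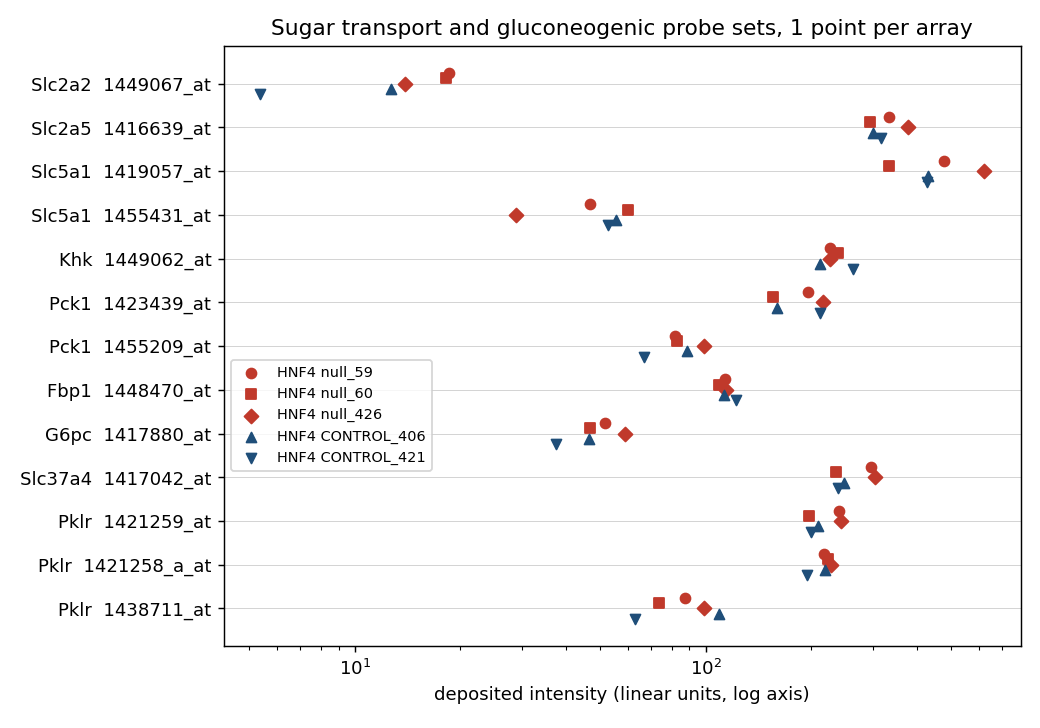
Deposited intensity (linear units on a log axis) of the 13 probe sets in each array, with null arrays in red and control arrays in blue. Colours are mixed in 11 of the 13 rows, and only Slc2a2 and G6pc have all 3 null arrays above both controls.

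Taking the 13 probe sets as a list, 9 differences were positive and 4 negative, with a median of 0.09 on the log2 scale against 0.02 over all probe sets. The differences ran from -0.31 (Slc5a1, dimmer probe set) to 0.33 (Slc2a2). The groups did not overlap for 2 of 13 (Slc2a2 and G6pc), both with null above control, where 14.6% of all probe sets had every null array above and 9.64% every null array below the controls. The share of members above was 15.4%, near that of the whole array, and 0 lay below. In either direction the share was 15.4%, against 24.2% of all probe sets. The 95% interval lay inside a 2-fold change in either direction for each of the 13 probe sets on this scale, as it did for 21131 of the 22626 probe sets tested. An adjusted p above the threshold does not show that levels were equal, and 2 control arrays limit what could be detected. In Slc2a2, whose values are of the size of the pseudocount, the interval with a pseudocount of 1 reached beyond 2-fold.

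**Figure D3:**
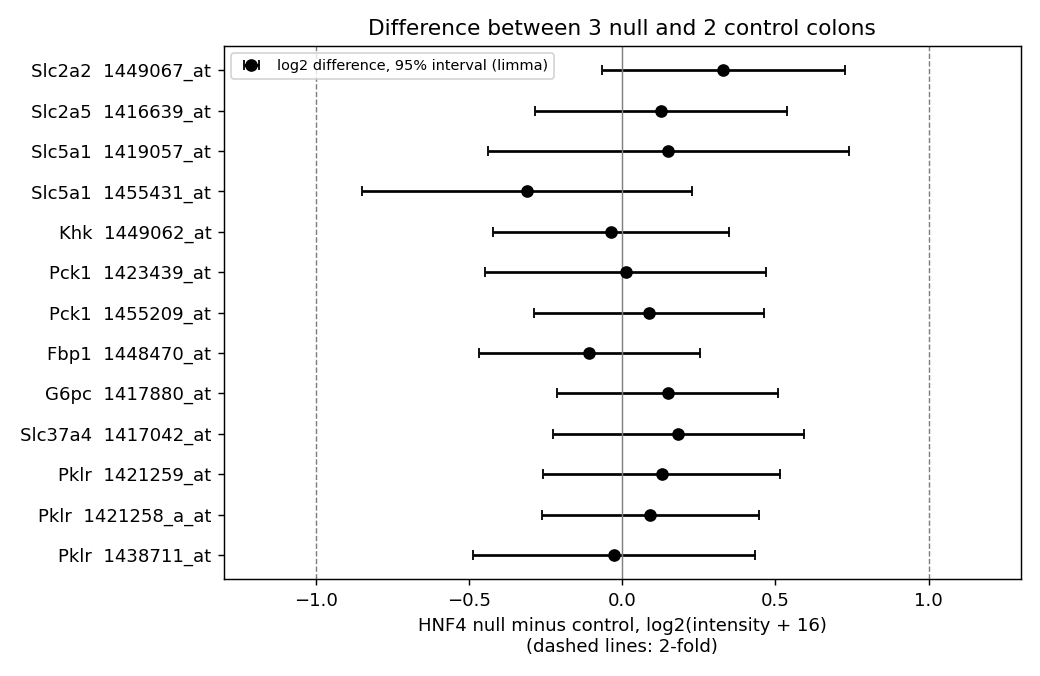
Difference between HNF4 null (n = 3) and control (n = 2) colons on the log2(intensity + 16) scale for the 13 probe sets, with 95% intervals from limma and dashed lines at 2-fold. Every interval includes 0, and the points lie between -0.31 and 0.33.

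The arrays differed among themselves in ways that touched these genes. After normalisation null_426 was the highest of the 5 arrays for 7 of the 13 probe sets, against 27.1% of all probe sets, and null_60 and CONTROL_421 were the lowest for 5 each, against 18.6% and 22.7%. null_426 also had the lowest summed intensity of 12 gut epithelial marker genes. That sum was 23054 in null_426, 26503 in null_59 and 27955 in null_60, and 29999 and 28278 in the controls, so that every null array lay below both controls. Of the 15 epithelial probe sets 0 passed the adjusted threshold, and for 6 of them limma gave an unadjusted p under 0.05 with null lower (40.0%, against 4.33% of all probe sets), among them those of Epcam, an adhesion protein of epithelia (1572, 1619 and 1259 against 2342 and 2565), and Vil1, the microvillar protein villin. The other way, 4 of the 15 had positive differences, those of the keratins Krt18 (0.29 on the log2 scale) and Krt19 (0.14), of Cldn7 (0.01) and of Lgals4 (0.01). In whole colon, fewer epithelial cells and less RNA of the lower marker genes per epithelial cell cannot be told apart. The part of these marker levels in the member values was not tested.

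Markers of tissues that make these enzymes in quantity were also measured. Gut epithelium was present in every array, with Lgals4, a galectin of that tissue, at 4044 to 5717. The summed intensity of 12 liver genes was 1384 to 1591 in null and 1503 to 1653 in control colons, with Cps1 as the brightest gene (300.2 to 405.9, a gene that gut epithelium also expresses), and 12 kidney genes summed to 1906 to 2473 against 2053 to 2058, with Pax8 the brightest (297 to 373). The 11 measured genes of the small intestine summed to 1804 to 2108 in null and 2828 to 3154 in control colons, which did not overlap, and Adh1 was the brightest of them (370 to 737). This list also holds Clec2h, a C-type lectin gene with 3 probe sets, 2 of which passed the threshold as lower in null. For 6 of its 16 probe sets limma gave an unadjusted p under 0.05 with null lower (37.5%, against 4.33% of all probe sets). The other way, 5 of the 16 had positive differences. Without Clec2h and Adh1, an alternative chosen after seeing the data, the sums of the other 9 genes overlapped, at 1145 to 1235 in null and 1195 to 1312 in control colons. Among these 9, dim probe sets of Slc10a2 (19.8, 20.5 and 21.0 against 40.4 and 36.9) and Mttp (1419400_at) still had every null array below both controls. So did probe sets that were not dim, of Apoa4 (1436504_x_at, 377, 321 and 398 against 432 and 428) and Rbp2 (79.8, 77.7 and 96.9 against 105 and 107). The other probe sets of Apoa4 and Mttp overlapped between the groups. The pancreas list (11 genes) summed to 2982 to 3926 in null and 3472 to 3683 in control colons, with Cpa1 at 404 to 639. The fat list (7 genes) gave 1540 to 1962 and 1567 to 1815 with Fabp4 at 346 to 575, that of smooth muscle and mesenchyme (11 genes) 25886 to 30734 and 26122 to 29723 with Acta2 at 5074 to 5235, and that of blood cells (5 genes) 494 to 564 and 484 to 528 with Lyz2 at 140 to 196. In these 4 lists, as in those of liver and kidney, the sums of the 2 groups overlapped. Single probe sets did not all follow the sums. At an unadjusted p under 0.05 (limma), 2 of 19 liver probe sets were lower in null, both of Ttr, whose brightest probe set overlapped. Of 19 kidney probe sets 2 were lower, both of Cubn, and 1, of Kap, was higher. Each list thus had 10.5% lower, against 4.33% of all probe sets. The dim Cubn probe set 1452270_s_at was below 0 in every null array, against 28.1 and 13.0 in the controls (limma adjusted p = 0.0567). No marker was at or below 0 in every array, and the part of any of these lists in the member values was not tested.

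**Figure D4:**
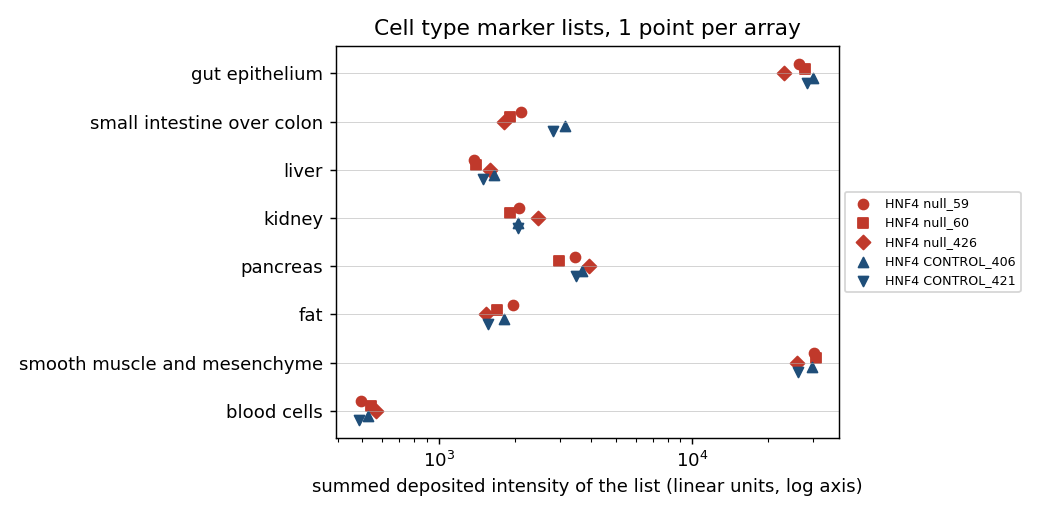
Summed deposited intensity (linear units on a log axis) of 8 marker lists in each array, with null arrays in red and control arrays in blue. The sums of gut epithelium (23054 to 27955 in null, 28278 to 29999 in control) and of small intestine genes (1804 to 2108 and 2828 to 3154) do not overlap between the groups, and the other 6 do. Without Clec2h and Adh1, left out after the data were seen, the small intestine sums overlap too, though single probe sets of the other genes, dim and not dim, do not.

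The 4 Hnf4a probe sets, which check the genotype labels, did not pass the threshold. For 2 of them the null arrays lay below both controls, 1427000_at at 344, 348 and 358 against 640 and 442, and 1427001_s_at at 650, 746 and 723 against 945 and 991. The other 2 overlapped between the groups and leaned the opposite way, 1421983_s_at with 378, 322 and 367 against 426.2 and 249 (null over control 1.10) and 1450447_at with 332, 325 and 399 against 342 and 283 (1.14). The labels name neither the floxed HNF4 gene nor the exons between the loxP sites, so these readings do not settle whether the labels are right. CONTROL_421 stood apart in its Gapdh controls, where signal near the 3' end over that near the 5' end came to 1.47, against 0.767 to 0.895 in the remaining arrays.

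The other genes of glucose and fructose metabolism were likewise without a call over all probe sets. Of 133 probe sets for 74 genes in 5 lists, 0 passed the adjusted threshold, and at an unadjusted p under 0.05 (limma) 4 were lower and 6 higher in null, or 3.01% and 4.51%, against 4.33% and 2.82% of all probe sets. Their median difference was 0.03 on the log2 scale, and 32 of the 133 did not overlap between the groups (24.1%, against 24.2% of all probe sets). In all 6 of the higher probe sets the lowest deposited intensity was that of CONTROL_421 (in 5 of 6 after normalisation), whose Gapdh ratio was high, as it was in 65.5% of the 638 such probe sets over the whole array. In all 4 of the lower ones the lowest deposited intensity was that of null_426 (also in 4 of 4 after normalisation), as it was in 58.2% of 980. Of those 980, 0 had a control lowest, so here too the choice of probe sets fixed the group of the lowest array. Without null_59 the number of higher probe sets in these lists was 1, while over all probe sets it went from 638 to 388. Without null_60 it was 4 and without null_426 it was 8, against 747 and 506 over all probe sets.

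Of the other hexose transporters, 21 probe sets of 12 genes had a median difference of 0.04, with 1 higher at an unadjusted p under 0.05. This was Slc2a3, the high-affinity glucose transporter GLUT3 known from neurons, whose probe set 1455898_x_at read 139, 129 and 137 in null and 98.5 and 95.2 in control colons. The ratio was 1.29 (95% interval 1.01 to 1.65, adjusted p = 0.692), and the other 3 probe sets of the gene overlapped between the groups. Slc2a1, the widely expressed transporter GLUT1, read 1007, 741 and 732 against 727 and 640 by its brightest probe set (log2 difference 0.33, adjusted p = 0.768). By its other probe sets the difference was 0.15 and 0.04. Slc5a9, a relative of SGLT1, differed by 0.65 by 1452136_at (adjusted p = 0.742), with null_426 far above the rest at 131 against 31.1 to 63.95. By its other probe set, 1426634_at, it differed by -0.03.

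Of the other enzymes of fructose, galactose and polyols, 9 probe sets of 6 genes had a median of -0.09 and 1 was lower at an unadjusted p under 0.05. This was Fbp2, the muscle form of fructose bisphosphatase and the closest relative of Fbp1, which stood in this list and in the gluconeogenic one. It read 221, 236 and 206 in null and 442 and 331 in control colons, so that the groups did not overlap. The control over null ratio was 1.68 (95% interval 1.28 to 2.21, unadjusted p = 0.00187 and adjusted p = 0.323 by limma), and with any 1 array left out the log2 difference stayed between -0.91 and -0.57. Galm, which turns the ring forms of galactose into each other, differed by -0.32 by 1452583_s_at (adjusted p = 0.731), by -0.22 by its dimmest and by 0.14 by its brightest probe set. The glycerate kinase gene Glyctk differed by 0.24 by 1424994_at (adjusted p = 0.782) and by -0.09 by its other probe set.

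Of the other gluconeogenic and glucose phosphatase genes, 27 probe sets of 15 genes had a median of -0.01, with 1 lower (Fbp2) and 2 higher at an unadjusted p under 0.05. Pck2, the mitochondrial counterpart of Pck1, read 266, 267 and 178 in null and 180.4 and 89.8 in control colons by 1425615_a_at. CONTROL_421 stood lowest and the groups overlapped at 178 and 180.4. The ratio was 1.68 (1.11 to 2.55, adjusted p = 0.624). By the dimmer Pck2 probe set, 1452620_at, the log2 difference was 0.20. Gpd1, the cytosolic glycerol phosphate dehydrogenase, differed by 0.54 by its dimmest probe set, 1456732_at (39.0, 37.2 and 33.7 against 22.4 and 14.1, adjusted p = 0.578), and its other 3 probe sets by -0.18 to 0.22. Without CONTROL_406, which left 1 control array, Got2, the mitochondrial aspartate aminotransferase, had a log2 difference of 1.71 by 1417716_at. It read 469, 423 and 361 in null colons, 458 in CONTROL_406 and 109 in CONTROL_421, and it was named after its values were seen.

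Of the other glycolytic enzymes, 31 probe sets of 17 genes had a median of 0.14, with 1 lower and 3 higher at an unadjusted p under 0.05. Pkm, the pyruvate kinase of most tissues other than liver and the counterpart of Pklr, read 2130, 1736 and 1688 in null and 1512 and 1173 in control colons, so that the groups did not overlap. The ratio was 1.46 (95% interval 1.10 to 1.93, adjusted p = 0.591). Pfkl, the liver-type phosphofructokinase, differed by 0.67 (1450269_a_at, adjusted p = 0.644), with 345 in CONTROL_421 and 584 to 846 in the other arrays. By its brighter probe set, 1439148_a_at, it differed by 0.40. Eno3, the muscle-type enolase, read 110, 138 and 105 in null and 210 and 157 in control colons, a log2 difference of -0.61 (adjusted p = 0.578).

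Of the regulators of glucose metabolism, 46 probe sets of 25 genes had a median of -0.01 and ran from -1.18 to 0.63. At an unadjusted p under 0.05, 2 were lower, and the probe set at -1.18 was not 1 of them. Both were C/EBP transcription factor genes, whose products are known activators of G6pc and Pck1 in liver. Cebpa read 226, 279 and 192 in null and 386 and 434 in control colons, a control over null ratio of 1.72 (95% interval 1.28 to 2.32, unadjusted p = 0.00240 and adjusted p = 0.362 by limma). Cebpb read 152, 151 and 104 against 178 and 230 by 1418901_at, a log2 difference of -0.58 (adjusted p = 0.652). The groups did not overlap for either of these probe sets, while the second, dimmer probe set of Cebpb, 1427844_a_at, read 39.5, 50.04 and 28.6 against 43.3 and 67.0, with the groups overlapping. Tas1r2, which encodes a subunit of the sweet taste receptor, differed by 0.58 at low intensities (21.4, 49.0 and 33.8 against 11.3 and 20.9, adjusted p = 0.702).

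**Figure D5:**
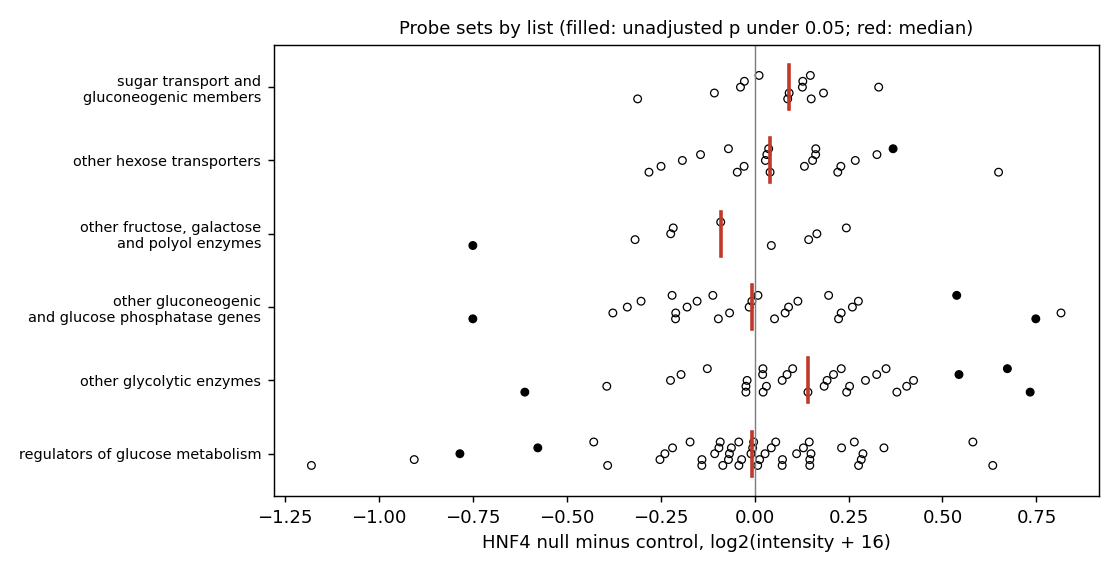
Differences between HNF4 null and control colons on the log2(intensity + 16) scale for the 13 member probe sets and the probe sets of 5 other lists, with filled points at an unadjusted p under 0.05 and red bars at the medians. The member row has no filled point and a median of 0.09, and filled points to the left of 0 include Fbp2 and Cebpa and to the right of 0 Pck2, Pkm and Pfkl.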

How the data were processed

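RNA of each colon, extracted with Qiagen RNeasy mini columns, was biotin-labelled by a standard Affymetrix procedure, per the labels' protocols. The authors' deposited values are 1 linear intensity per probe set and array, some of them below 0. How probes were summarised, scaled and background-corrected is not given in the sources used here. Precision is limited by the number of arrays. The labels number the colons separately and do not say whether any was pooled, so the unit of each test was the sample. Each p-value sets the difference of the groups against the spread within them, which limma moderates by that of all probe sets.

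Of 22690 probe sets, 64 control probe sets were left out. The platform annotation of 2016 gave 20380 of the rest 1 symbol, 691 several and 1555 none, and a match of gene IDs to RefSeq (GRCm38.p6) changed 0 symbols. Values below 0 were set to 0, and log2(intensity + 16) was quantile normalised. Ratios are on this scale, which understates changes of dim probe sets. Null was compared with control by the two-sided moderated test of limma 3.58.1 (R 4.3.3, eBayes), with Benjamini-Hochberg adjustment over 22626 probe sets. The code was tested on simulated data. Promoters came from RefSeq, and all 9 symbols matched.

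All member probe sets are named. Each other pathway list gave the 3 genes with the smallest unadjusted p, each marker list its brightest gene. Other marker genes are named outside this rule, by how their probe sets differed. Members and lists were chosen with earlier results of these data known. Alternatives were array weights, each array left out, no normalisation, centring on medians, a pseudocount of 1 or 64, a filter on probe sets dimmer than the median, averaging the probe sets of a gene, and a variance trend, plain or robust.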

Additional observations from a re-analysis of the deposited data

How the results depend on the processing

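With each of the 14 other settings tried, 0 member probe sets (0 member genes where probe sets were averaged) passed the adjusted threshold in limma, and the lowest adjusted p of any member was 0.404 (Slc2a2 with array weights). At an unadjusted p under 0.05, 1 member was higher, Slc2a2, with a pseudocount of 1 and with array weights, and 0 in the other settings. For the 5 other lists, the number of higher probe sets at this level was 15 with array weights. Over all probe sets it was then 1100, against 638 in the main fit. With 1 null array left out the lists had 1 to 8 higher probe sets, against 388 to 747 over all probe sets. They had 3 to 7 lower ones, against 682 to 1387, and 0 passed the adjusted threshold. The cause of these shifts was not tested. Counts for these lists from fits with a single control array are not given. Without CONTROL_406 the log2 difference of Got2 was 1.71. The sign of a member's difference turned in 12 of 172 refits, none of them past the threshold. Pck1 1423439_at was at -0.023 with median centring, and from -0.20 to 0.22 with 1 array left out. Pklr 1438711_at was at 0.041 in the table as deposited, at 0.0011 with array weights, and from -0.30 to 0.25 with 1 array left out. Slc5a1 1419057_at was at -0.080 as the mean of its probe sets, and from -0.083 to 0.41 with 1 array left out. Khk ranged from -0.20 to 0.13 and Pck1 1455209_at from -0.030 to 0.21 with 1 array left out. Removal of dim probe sets left 7 of the 13 members. Where a single control array remained, its spread was taken to equal that of the null group. No paired analysis was possible because the groups share no replicate numbers.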
